A study of Mus musculus with 6 samples.

Results

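Serpina7 and 7 other genes of thyroid hormone handling were followed in the livers of WT and SCADD mice. The 8 genes are the plasma binding proteins Serpina7, Ttr and Alb, the membrane transporter Slc16a10, the deiodinase Dio1, the nuclear receptors Thra and Thrb, and the response gene Klf9. They were selected on their role and on their values in this same comparison, so their values are given as a description, without p-values. All 8 were found by symbol among the 55487 genes in the files, and all 8 passed the filter on low counts that left 13498 genes.

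Poly(A) RNA of frozen liver was sequenced from 6 male mice aged 8 weeks and kept on standard chow. The WT group held 3 animals of the inbred mouse substrain BALB_cJ. The SCADD group held 3 animals of BALB_cBYJ, a substrain with deficiency of short-chain acyl-CoA dehydrogenase, a mitochondrial enzyme of fatty acid oxidation encoded by Acads. No agent was given in either group, so far as the labels say. Genotype and substrain coincide in every animal, so the enzyme defect and other differences between the substrains cannot be told apart.

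Thyroid hormone leaves the thyroid mainly as thyroxine, a prohormone, and travels in plasma bound to carrier proteins made by the liver. Transporters carry it across cell membranes, deiodinases remove iodine atoms to activate or inactivate it, and nuclear receptors that bind the active form, triiodothyronine, set the transcription of target genes. In the liver, Dio1 and Klf9 are known as genes that respond to the hormone.

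Serpina7 encodes thyroxine-binding globulin, the plasma carrier with the highest affinity for thyroxine. It lies at 139079257 to 139085236 on the minus strand of chromosome X (GRCm38). The 250 bases before its transcription start (GRCm38.p6, chrX:139085237-139085486, minus strand) are shown because Serpina7 had the largest difference of the 8 genes. The sequence comes from RefSeq and belongs to the reference strain, not to either BALB substrain. Capitals mark matches to short motifs in the order of the text below.
Serpina7: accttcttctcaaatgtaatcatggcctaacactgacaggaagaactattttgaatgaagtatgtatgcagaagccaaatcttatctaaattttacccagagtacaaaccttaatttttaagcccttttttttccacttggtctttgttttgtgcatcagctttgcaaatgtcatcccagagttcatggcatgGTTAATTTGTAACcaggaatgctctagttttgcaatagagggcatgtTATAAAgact
The upstream capitals hold GTTAAT, a half-site of the hepatocyte factor HNF1, and go on to a run of 13 bases that starts 57 bases before the transcription start. The downstream capitals are TATAAA, the TATA box core, which starts 10 bases before it.

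The same window of Alb, the gene of serum albumin, is shown for comparison (GRCm38.p6, chr5:90460620-90460869, plus strand).
Alb: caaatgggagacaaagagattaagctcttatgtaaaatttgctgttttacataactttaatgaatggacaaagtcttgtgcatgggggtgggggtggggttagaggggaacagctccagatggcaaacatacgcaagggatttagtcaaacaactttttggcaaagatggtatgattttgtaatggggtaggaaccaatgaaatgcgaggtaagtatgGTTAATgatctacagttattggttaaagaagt
It holds GTTAAT 32 bases before the RefSeq start and no TATAAA. The GENCODE start of Alb lies 27 bases further downstream, which puts GTTAAT 59 bases before it, and the bases between the 2 starts were not searched. The window of Dio1 (GRCm38.p6, chr4:107307169-107307418, minus strand) is shown because Dio1 had the next largest difference, and it has no capitals.
Dio1: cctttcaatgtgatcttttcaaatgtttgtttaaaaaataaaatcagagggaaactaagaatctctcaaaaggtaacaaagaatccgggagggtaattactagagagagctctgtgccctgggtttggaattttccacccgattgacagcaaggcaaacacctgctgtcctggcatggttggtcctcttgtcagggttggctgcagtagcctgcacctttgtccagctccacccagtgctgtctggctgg
The Dio1 window held none of the searched motifs on either strand, AGGTCA, a nuclear receptor half-site, included, which says only that these letters are not in it. Among 32851 RefSeq promoter windows of 250 bases, 6.43% held GTTAAT, 12.4% held TATAAA and 14.0% held AGGTCA, each searched on both strands. The longer pattern of GTTAAT, 4 bases of any kind and AAC was written down after the Serpina7 window had been read. It contains the half-site by construction and was found in 57 windows (0.174%). Promoter entries were found for 6 of the 8 genes, and Serpina7 has 2, of which the entry whose start is the annotated gene start is shown. Counted from the start of the other Serpina7 entry, GTTAAT begins 74 bases and TATAAA 27 bases before it. Among the windows not shown, GTTAAT was also in that of Slc16a10, 232 bases before the start, and in 1 Thrb entry, 44 bases before it. That Thrb entry also held AGGTCA, and the other Thrb entry held TATAAA. The Klf9 window held none of the searched motifs. The half-site was thus not particular to the plasma carriers. A match describes letters and not a bound site.

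Levels are given as CPM, read counts scaled to library size, in the order of replicates 1, 2 and 3. Serpina7 was at 14.6, 11.02 and 10.4 CPM in the WT livers. The SCADD livers had 98.6, 109 and 108 CPM. Every SCADD library lay far above every WT library, and the groups did not overlap. The means were 12.0 ± 2.29 CPM in WT and 105 ± 5.88 CPM in SCADD (SD, n = 3 each). On the log2 scale SCADD over WT was 3.13 (SE 0.16), or 8.77-fold. These levels rest on 252 to 404 reads in a WT liver and 1741 to 2417 reads in a SCADD liver. Relative to its mean the level varied by 19.1% between WT animals and by 5.58% between SCADD animals.

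The libraries differed between the groups in several other ways. Reads counted in genes totalled 23991104 to 27148756 in WT and 16948986 to 23912744 in SCADD. Unmapped reads were 13.6% to 16.4% of all reads in WT and 25.1% to 36.6% in SCADD, with no overlap. Acads was at 166 to 196 CPM in WT and 97.0 to 104 CPM in SCADD, so each library carried the lower or higher level its label implies. The 6 hepatocyte markers summed to 26043 to 28368 CPM in WT and 20426 to 23633 CPM in SCADD. Of these 6, Ahsg and Cps1 fell and none rose by edgeR's quasi-likelihood test. Ahsg alone went from a mean of 9694 CPM in WT to 4923 CPM in SCADD. Hnf4a (331 to 411 CPM in WT, 431 to 573 CPM in SCADD) was higher in SCADD without overlap, but was not called. The same held for Cyp2e1 (3542 to 3918 CPM in WT, 4129 to 5503 CPM in SCADD). For Apoa1 and Apob the groups overlapped, so the hepatocyte markers did not move in 1 direction. The 5 sinusoidal endothelial markers summed to 158 to 166 CPM in WT and 90.8 to 151 CPM in SCADD, with 1 of 5 (Lyve1) called lower. Clec4g (112 to 117 CPM in WT, 53.8 to 104 CPM in SCADD) was also lower without overlap, but was not called. The same held for Pecam1 (6.08 to 6.58 CPM in WT, 4.32 to 5.33 CPM in SCADD). For Stab2 and Kdr the groups overlapped. Of 3 erythroid markers, 1 (Alas2) was higher. WT replicate 1 stood apart in adipocyte markers, with Adipoq at 4.67 CPM against 0.300 to 0.612 CPM in the other libraries, 72 reads of Cfd against 0 to 2 and 13 of Plin1 against 0 to 3. Without that library the log2 fold change was 3.29 for Serpina7 and 2.35 for Dio1. None of the tested cholangiocyte, Kupffer, stellate, lymphocyte and adipocyte markers was called by edgeR, DESeq2 or limma-voom, though 2 of 3 tested cholangiocyte markers had an unadjusted p under 0.05. Only 1 of the 3 adipocyte markers, Adipoq, passed the filter. All 3 pancreas markers were at 0 reads. In bulk tissue, fewer cells of a type and less RNA per cell cannot be told apart, and the part of these differences in the results was not tested.

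Ttr encodes transthyretin, a carrier of thyroxine and of retinol-binding protein (chromosome 18, 20665280 to 20674321, plus strand). Ttr was at 3013, 3787 and 3039 CPM in the WT livers and at 3733, 4384 and 2883 CPM in the SCADD livers. The groups overlapped, since SCADD replicate 3 was the lowest of the 6 libraries and SCADD replicate 2 the highest. Its log2 fold change was 0.16 (SE 0.21).

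Alb encodes albumin, an abundant carrier that binds thyroid hormone with low affinity (chromosome 5, 90460897 to 90476602, plus strand). Alb reached 86355, 135287 and 89716 CPM in the WT livers and 103941, 117365 and 79586 CPM in the SCADD livers. WT replicate 2 was the highest library and SCADD replicate 3 the lowest, so the SCADD values lay inside or below the WT range. Alb had a log2 fold change of -0.05 (SE 0.26), and it was 0.19 without WT replicate 2 and 0.10 without SCADD replicate 3. Of the 3 thyroid hormone carriers, Serpina7 alone had groups that did not overlap. Within the fit, the differences in Ttr and Alb were smaller than their SE.

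**Figure D1:**
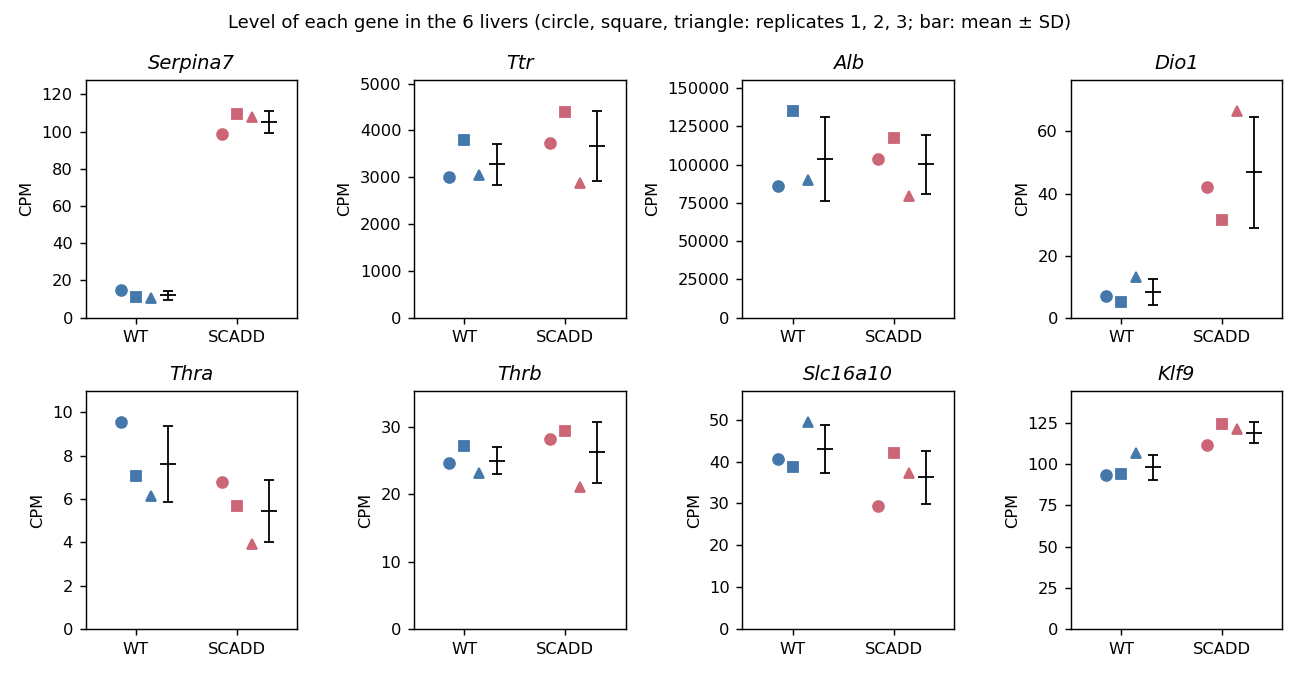
Level of each of the 8 genes in CPM (vertical axes, from 0) in the 3 WT (blue) and 3 SCADD (red) livers, with circles, squares and triangles for replicates 1, 2 and 3 and bars for the mean ± SD. For Serpina7 the WT livers sit between 10.4 and 14.6 CPM and the SCADD livers between 98.6 and 109 CPM, whereas for Ttr, Alb, Thra, Thrb and Slc16a10 the groups overlap.

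Slc16a10 encodes the monocarboxylate transporter MCT10, which carries aromatic amino acids and thyroid hormone (chromosome 10, 40033532 to 40142258, minus strand). Slc16a10 was at 40.6, 38.7 and 49.4 CPM in the WT livers. Its level in the SCADD livers was 29.3, 42.0 and 37.3 CPM. SCADD replicate 2 lay above WT replicates 1 and 2, so the groups overlapped. Its log2 fold change was -0.25 (SE 0.16).

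Dio1 encodes type 1 deiodinase, a selenoprotein that removes iodine from either ring of thyroid hormones (chromosome 4, 107291465 to 107307169, minus strand). Selenocysteine in its active site is read from an in-frame TGA codon, and 33 bases of coding sequence around that codon are shown with the codon in capitals (GRCm38, chr4:107297685-107297717, minus strand, GENCODE transcript sequence).
Dio1 coding stretch: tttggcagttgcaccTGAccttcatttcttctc
The TGA is codon 126 of 257. Dio1 was at 6.80, 5.07 and 13.03 CPM in the WT livers. The SCADD livers held 42.1, 31.6 and 66.7 CPM of Dio1. The lowest SCADD library lay above the highest WT library, and replicate 3 was the highest in each group. The means were 8.30 ± 4.18 CPM in WT and 46.8 ± 18.0 CPM in SCADD (SD, n = 3 each). Dio1 thus differed by a log2 fold change of 2.49 (SE 0.42), or 5.61-fold. Between 116 and 347 reads supported it in a WT liver and between 670 and 1075 in a SCADD liver. Relative to its mean Dio1 varied more between animals than Serpina7 did, by 50.4% in WT and 38.5% in SCADD.

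Thra encodes the thyroid hormone receptor alpha (chromosome 11, 98740638 to 98769006, plus strand). Thra was at 9.55, 7.08 and 6.16 CPM in the WT livers and at 6.77, 5.66 and 3.91 CPM in the SCADD livers. SCADD replicate 1 lay between WT replicates 2 and 3, so the groups overlapped. The log2 fold change was -0.47 (SE 0.23), and the lowest library, SCADD replicate 3, held 63 reads. The last 1075 bases of Thra overlap Nr1d1, a repressor of the circadian clock on the opposite strand. With unstranded counts Thra held 910 reads over all libraries, against 939 with stranded counts, and its log2 fold change was -0.40. Nr1d1 itself varied from 11.8 to 31.1 CPM in WT and from 14.2 to 42.9 CPM in SCADD.

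Thrb encodes the thyroid hormone receptor beta, the main receptor form of hepatocytes (chromosome 14, 17660261 to 18038090, plus strand). Thrb was at 24.7, 27.1 and 23.1 CPM in the WT livers and at 28.3, 29.4 and 21.1 CPM in the SCADD livers. SCADD replicate 3 was below every WT library and the other two SCADD libraries above, so the groups overlapped. Thrb had a log2 fold change of 0.07 (SE 0.15), and it was -0.02 without SCADD replicate 2.

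Klf9 encodes a zinc finger transcription factor induced by thyroid hormone and by glucocorticoids (chromosome 19, 23141226 to 23168134, plus strand). Klf9 was at 93.7, 93.9 and 107 CPM in the WT livers and at 112, 124 and 121 CPM in the SCADD livers. Every SCADD library lay above every WT library, with the narrowest gap between SCADD replicate 1 and WT replicate 3. The means were 98.1 ± 7.49 CPM in WT and 119 ± 6.41 CPM in SCADD (SD, n = 3 each). The log2 fold change was 0.28 (SE 0.13), or 1.21-fold, the smallest of the 3 genes without overlap.

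In the fit over all genes, edgeR called 7.02% of the 13498 tested genes at an adjusted p under 0.05, with 4.22% higher and 2.80% lower in SCADD. Of the 8 genes 2 were called, Serpina7 and Dio1, both higher. Serpina7 alone was called when WT replicate 1, SCADD replicate 1 or SCADD replicate 3 was left out. In 3 of the 8 genes the groups did not overlap, against 28.0% of all tested genes. Since the genes were selected on this comparison, nothing is read from these counts.

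Levels were compared between genes on the deposited TPM scale (a share of all transcripts that accounts for transcript length). In WT the order from high to low was Alb at 50830, Ttr at 2955, Klf9 at 21.6, Slc16a10 at 9.60, Serpina7 at 7.32, Dio1 at 5.35, Thrb at 5.09 and Thra at 3.89 TPM. Alb, Ttr and Klf9 were each separated from their neighbours in this order in every library. Below them, the range of each gene overlapped that of the next, from Slc16a10 (8.88 to 10.4 TPM) and Serpina7 (5.32 to 10.1 TPM) down to Thrb and Thra.

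In SCADD the order changed. Klf9, whose groups did not overlap in CPM, did overlap in TPM (20.2 to 22.2 TPM in WT and 20.3 to 29.1 TPM in SCADD). With the abundant major urinary protein genes left out of the TPM total, the Klf9 groups did not overlap (20.9 to 23.2 against 23.9 to 31.8 TPM). Serpina7, at 64.7 ± 14.7 TPM (SD, n = 3), stood next after Alb (48502 TPM) and Ttr (3250 TPM), and its lowest library, 49.6 TPM, lay above the highest of Dio1, 33.4 TPM. Dio1, at 27.7 ± 5.87 TPM, followed, within the range of Klf9 (20.3 to 29.1 TPM) in SCADD replicates 1 and 2. Slc16a10 at 7.25 TPM and Thrb at 6.08 TPM overlapped, and Thra stayed lowest at 2.65 TPM. SCADD replicate 3 had the lowest TPM of the SCADD group for 7 of the 8 genes, all but Dio1.

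**Figure D2:**
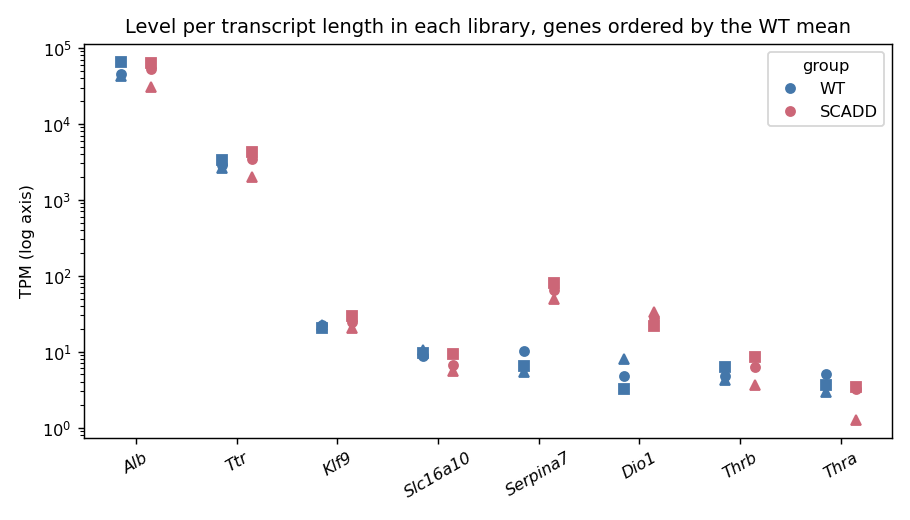
TPM of the 8 genes in each library on a log axis, ordered by the WT mean, with circles, squares and triangles for replicates 1, 2 and 3 of WT (blue) and SCADD (red). Serpina7 moves from 5.32 to 10.1 TPM in WT to 49.6 to 78.9 TPM in SCADD, past Slc16a10 and Klf9, while Alb and Ttr stay the highest.

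TPM values of a library sum to a fixed total, so abundant genes lower the rest. The major urinary protein (Mup) genes took 3.23% to 4.16% of TPM in WT and 7.37% to 14.8% in SCADD, with the highest share in SCADD replicate 3. With these genes left out, the ratio of mean Serpina7 TPM in SCADD over WT was 9.45, against 8.83 with them. Per 1000 TPM of Ttr, Serpina7 was at 3.498, 1.94 and 2.03 TPM in the WT livers. The SCADD livers had 18.9, 18.4 and 24.9 TPM of Serpina7 per 1000 TPM of Ttr. Serpina7 relative to this other carrier separated the groups in all 6 libraries. Ttr differed little beside Serpina7, so dividing by it could hardly undo the separation, and the ratio is no further result. The TPM ratio of Thrb to Thra was 0.941, 1.72 and 1.44 in the WT livers and 1.93, 2.43 and 2.83 in the SCADD livers. This ratio did not overlap between the groups, although neither receptor did so alone in CPM. It was 1 of 6 TPM ratios computed and rests on low Thra levels. The groups did not overlap in any of the 6. The ratios of Serpina7 to Ttr, Alb and Slc16a10 and of Dio1 to Klf9 could hardly come out otherwise. Serpina7 and Dio1 were selected on this comparison and differed strongly alone. The remaining ratio, Alb per Ttr, also separated the groups, at 15.6, 19.5 and 16.1 in WT and 15.2, 14.6 and 15.1 in SCADD. How often ratios of other genes separate the groups was not computed.

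Across the 6 libraries, Serpina7 was most alike in pattern, by Pearson's r of log2 CPM, to Acot4 (0.997), Pla2g5, Rap1gds1, Myadm and Ubl3 (0.996 each). These r values describe 6 libraries in 2 groups, so any gene with a steady difference between the groups comes out high. Acot4, an acyl-CoA thioesterase of peroxisomes, was at 55.8 ± 5.76 CPM in WT and 278 ± 23.6 CPM in SCADD (SD, n = 3 each). Ubl3 differed far less, with 34.8 ± 0.53 CPM in WT and 42.5 ± 0.22 CPM in SCADD. Of the 8 genes, Dio1 had an r of 0.91 with Serpina7 and Klf9 of 0.86, while Slc16a10 was at -0.56 and Thra at -0.60.

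The genes around the 8 genes were examined next, since position had not been used to select them. Within 500 kb of the 8 genes 73 other genes were tested, of which 4 (5.48%) were called by edgeR, close to the 7.02% of all genes. Serpina7 had 3 tested neighbours and 2 of these were called. D330045A20Rik, 395 kb away on chromosome X, was at 5.54, 6.78 and 5.59 CPM in the WT livers, from 457 reads. Only 8 reads were counted in the SCADD livers, at 0.204, 0.0472 and 0.124 CPM. It thus fell in SCADD while Serpina7 was higher (-5.47 on the log2 scale with an SE of 0.35, edgeR adjusted p = 1.59e-05).

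4930513O06Rik starts 1.01 kb from the start of Serpina7 and is read in the other direction. It had 8, 7 and 7 reads in the WT livers and 16, 19 and 13 reads in the SCADD livers. It rose with a log2 fold change of 1.43 (SE of 0.35, edgeR adjusted p = 0.0359). The call rests on few reads and was lost with DESeq2 (adjusted p = 0.0772), with the replicate number as a block (0.0505) and without any 1 of the 6 libraries (0.0529 to 0.131). Rnf128, the other tested neighbour, had a log2 fold change of -0.29 (SE of 0.13, edgeR adjusted p = 0.217). Its groups did not overlap (121 to 132 CPM in WT, 95.7 to 108 CPM in SCADD). All 3 tested neighbours of Serpina7 had an unadjusted p under 0.05 with edgeR, DESeq2 and limma-voom. The share of all tested genes at that unadjusted p is not given here, so this count has no background beside it.

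None of the 9 tested neighbours of Dio1 was called by edgeR, DESeq2 or limma-voom, and 0 had an unadjusted p under 0.05. Beside Alb, the gene of alpha-fetoprotein, Afp, fell by 2.39 on the log2 scale (SE 0.43, edgeR adjusted p = 0.0092), from 93 reads in WT to 14 in SCADD. When reads of both strands were counted Afp had 128 reads in WT and 177 in SCADD, and its log2 fold change was 0.77. With RSEM counts it was -0.49 (adjusted p = 0.349). Gm43449 overlaps Afp on the opposite strand and was 2.83-fold higher in SCADD without passing the threshold (edgeR adjusted p = 0.0504), with no overlap between the groups, and limma-voom called it. Beside Slc16a10, Mfsd4b1 rose from 37.1 ± 0.65 to 56.7 ± 6.61 CPM (SD, n = 3 each; log2 fold change 0.61 with an SE of 0.13, edgeR adjusted p = 0.0174). That call was lost when any 1 of the 3 WT libraries or SCADD replicate 1 was left out (adjusted p = 0.0697 to 0.11). The neighbours of Ttr, Thra, Thrb and Klf9 held no edgeR call, with 2, 4, 1 and 0 at an unadjusted p under 0.05. DESeq2 called 1 neighbour of Ttr (Rnf125), and limma-voom called none beside these 4 genes.

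**Figure D3:**
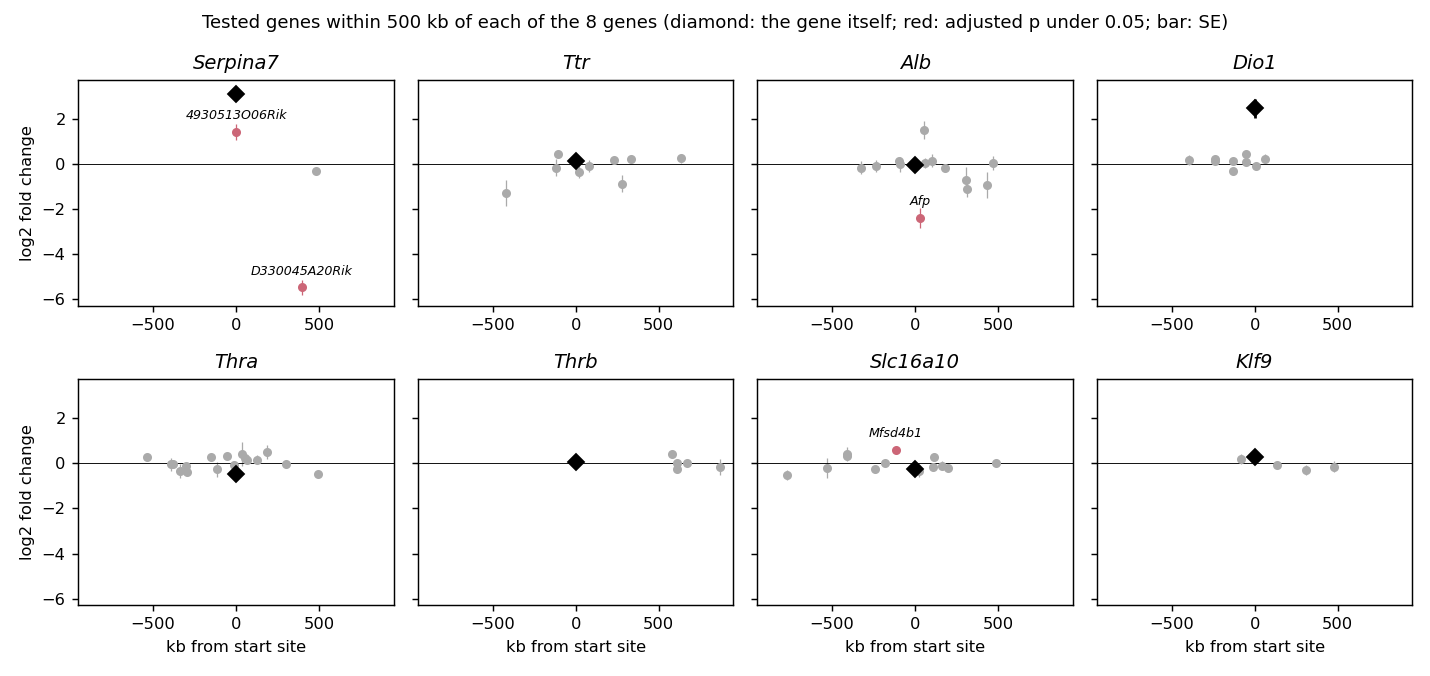
Log2 fold change (SCADD over WT, bars for SE) of tested genes within 500 kb of each of the 8 genes, against the distance in kb between start sites, with a black diamond for the gene itself and red for an edgeR adjusted p under 0.05. D330045A20Rik lies at -5.47 on one side of Serpina7, whereas every neighbour of Dio1 lies between -0.29 and 0.43.

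Other genes were taken from 9 lists, 5 of thyroid hormone handling and 4 of other carriers and regulators for comparison. In the 5 lists of thyroid hormone handling 56 of 61 genes were tested, and 1 rose and 3 fell by edgeR (7.14%, against 7.02% of all genes), with 17 at an unadjusted p under 0.05. In the 4 comparison lists 36 of 37 were tested, and 3 rose and 0 fell (8.33%), with 10 at an unadjusted p under 0.05. The median log2 fold change was 0.14 in the former, 0.05 in the latter and -0.00 over all tested genes. The share of all tested genes with an unadjusted p under 0.05 is not given here. Nothing is therefore read from the counts at that unadjusted p, in these groups of lists or in the single lists below. Leaving out WT replicate 2 brought the 7 calls of all 9 lists to 3, WT replicate 3 to 4, SCADD replicate 1 to 4 and SCADD replicate 2 to 12.

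Of the other thyroid hormone transporters 9 of 12 were tested, and 0 rose and 2 fell, with 3 at an unadjusted p under 0.05 (median log2 fold change 0.28). Slco1a4, an organic anion transporter, was at 149, 167 and 126 CPM in WT and at 82.0, 48.5 and 43.4 CPM in SCADD. Its groups did not overlap (log2 fold change -1.35 with an SE of 0.23, edgeR adjusted p = 0.00738). Slc10a1, the bile acid importer NTCP, fell from 1216 ± 156 to 691 ± 108 CPM (SD, n = 3 each; -0.81 on the log2 scale, SE 0.18, edgeR adjusted p = 0.0239). The call for Slc10a1 was lost without WT replicate 2 (adjusted p = 0.13) and without WT replicate 3 (0.0774). The third gene with an unadjusted p under 0.05, Slco1b2, was higher in SCADD but was not called. It was at 2830, 3048 and 3180 CPM in WT and at 3975, 3182 and 7076 CPM in SCADD. Its groups barely missed overlapping (log2 fold change 0.65 with an SE of 0.27, edgeR adjusted p = 0.186). The brain transporter Slco1c1 had 5 reads over the 6 libraries.

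Among 8 tested of 10 genes of deiodination and conjugation, 0 were called by edgeR, DESeq2 or limma-voom, and 4 had an unadjusted p under 0.05 (median log2 fold change -0.06). Ugt1a1, a glucuronosyltransferase, had a log2 fold change of 0.64 (SE of 0.22, edgeR adjusted p = 0.116). Sult1c2, a sulfotransferase, was at -0.65 (SE 0.23, edgeR adjusted p = 0.117). Both passed the threshold with no filter on low counts (adjusted p = 0.00191 and 0.0038), Ugt1a1 also without SCADD replicate 3 (0.0025) and Sult1c2 also without SCADD replicate 2 (0.0161) and with the replicate number as a block (0.0155). The other deiodinases were close to undetected, with 2 reads of Dio2 and 8 reads of Dio3 over all libraries, against at least 116 reads of Dio1 in each library.

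Dio1 protein needs the machinery that inserts selenocysteine. Of 7 such genes, all tested, 0 were called by edgeR, DESeq2 or limma-voom, and 0 had an unadjusted p under 0.05 (median log2 fold change 0.01). The smallest p belonged to Eefsec, the elongation factor for selenocysteine, with a log2 fold change of 0.28 (SE of 0.19, edgeR adjusted p = 0.437), and to Sephs2, a selenophosphate synthetase, at -0.22 (SE 0.17, edgeR adjusted p = 0.488).

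Of 17 receptor partners and coregulators 0 rose and 1 fell, with 7 at an unadjusted p under 0.05 (median log2 fold change 0.23). Ppargc1a, a coactivator of nuclear receptors and of mitochondrial genes, was at 11.4, 24.7 and 15.3 CPM in WT and at 4.65, 6.18 and 3.60 CPM in SCADD. The groups did not overlap (log2 fold change -1.82 with an SE of 0.30, edgeR adjusted p = 0.00744), though the adjusted p was 0.0516 without SCADD replicate 3.

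Of 15 genes listed here as raised by thyroid hormone, 1 rose and 0 fell, with 3 at an unadjusted p under 0.05 (median log2 fold change 0.13). Whether the hormone raises each of the 15 in these livers was not tested. The gene that rose was Gpd2, mitochondrial glycerol-3-phosphate dehydrogenase, which was at 20.3, 14.95 and 16.7 CPM in WT and at 26.7, 24.6 and 27.7 CPM in SCADD (log2 fold change 0.60 with an SE of 0.14, edgeR adjusted p = 0.0312). The call was lost when WT replicate 2, WT replicate 3 or SCADD replicate 1 was left out (adjusted p = 0.115 to 0.138). The other 14 genes were not called, and both others with an unadjusted p under 0.05 had negative log2 fold changes. Hr, a corepressor gene induced by the hormone, was at 1.45, 0.699 and 0.863 CPM in WT and at 0.408, 0.0472 and 0.558 CPM in SCADD, with no overlap (log2 fold change -1.62 with an SE of 0.56, edgeR adjusted p = 0.114). Cyp7a1, which starts the making of bile acids from cholesterol, was at -0.66 (SE of 0.25, edgeR adjusted p = 0.146), and its groups overlapped. Thrsp, a hormone-responsive lipogenic gene, was at 11.2, 10.6 and 64.7 CPM in WT and at 8.28, 29.1 and 21.7 CPM in SCADD.

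Of 6 plasma carriers of other hormones and vitamins 5 were tested, and edgeR called 0, with 2 at an unadjusted p under 0.05 (median log2 fold change 0.04). Serpina6, the corticosteroid carrier and a relative of Serpina7, was at 29.96, 29.1 and 23.99 CPM in WT and at 44.7, 305 and 52.0 CPM in SCADD. SCADD replicate 2 stood far above the rest. The log2 fold change was 2.28 (SE 0.82, edgeR adjusted p = 0.175) with it and 0.80 (SE 0.15, adjusted p = 0.00801) without it. Tcn2, the vitamin B12 carrier transcobalamin, was at 0.82 (SE 0.22, edgeR adjusted p = 0.0504), and DESeq2 called it (adjusted p = 0.00953) while limma-voom called no gene of the list. Without SCADD replicate 3 edgeR called Tcn2 (adjusted p = 0.00227). Shbg, the sex hormone carrier, had 0 reads.

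Of 12 hepatocyte transcription factors 1 rose and 0 fell, with 4 at an unadjusted p under 0.05 (median log2 fold change 0.04). Prox1, a homeobox factor of hepatocyte identity, was at 31.9, 33.6 and 32.02 CPM in WT and at 57.4, 51.7 and 52.7 CPM in SCADD (log2 fold change 0.73 with an SE of 0.12, edgeR adjusted p = 0.00516).

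Klf9 also responds to glucocorticoids. Of 8 other glucocorticoid-responsive genes edgeR called 0, with 2 at an unadjusted p under 0.05 (median log2 fold change 0.01). Pdk4, an inhibitor of pyruvate dehydrogenase that also rises in fasting, was at 21.7, 18.1 and 10.5 CPM in WT and at 156, 29.6 and 124 CPM in SCADD. Its log2 fold change was 2.61 (SE 0.66, edgeR adjusted p = 0.0788). Tsc22d3 was at -0.78 (SE 0.25, edgeR adjusted p = 0.0923). DESeq2 called both and limma-voom called Pdk4. Without SCADD replicate 2 edgeR called Pdk4 (adjusted p = 0.00112).

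Of 11 other Kruppel-like factors 2 rose and 0 fell, and no other had an unadjusted p under 0.05 (median log2 fold change 0.23). Klf3 had a log2 fold change of 0.61 (SE of 0.15, edgeR adjusted p = 0.0373) and Klf6 of 0.66 (SE 0.17, edgeR adjusted p = 0.0431). Both calls were lost with upper-quartile scaling (adjusted p = 0.052 and 0.0598), and that of Klf6 also with limma-voom (0.0528) and with RSEM counts (0.0514). Leaving out a library ended the Klf3 call for 4 of 6 libraries, all but SCADD replicates 2 and 3 (up to 0.172). It ended the Klf6 call for 5 of 6, all but SCADD replicate 2 (up to 0.161). Klf9, at 0.28, was closer to the list's median than to these 2 genes.

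**Figure D4:**
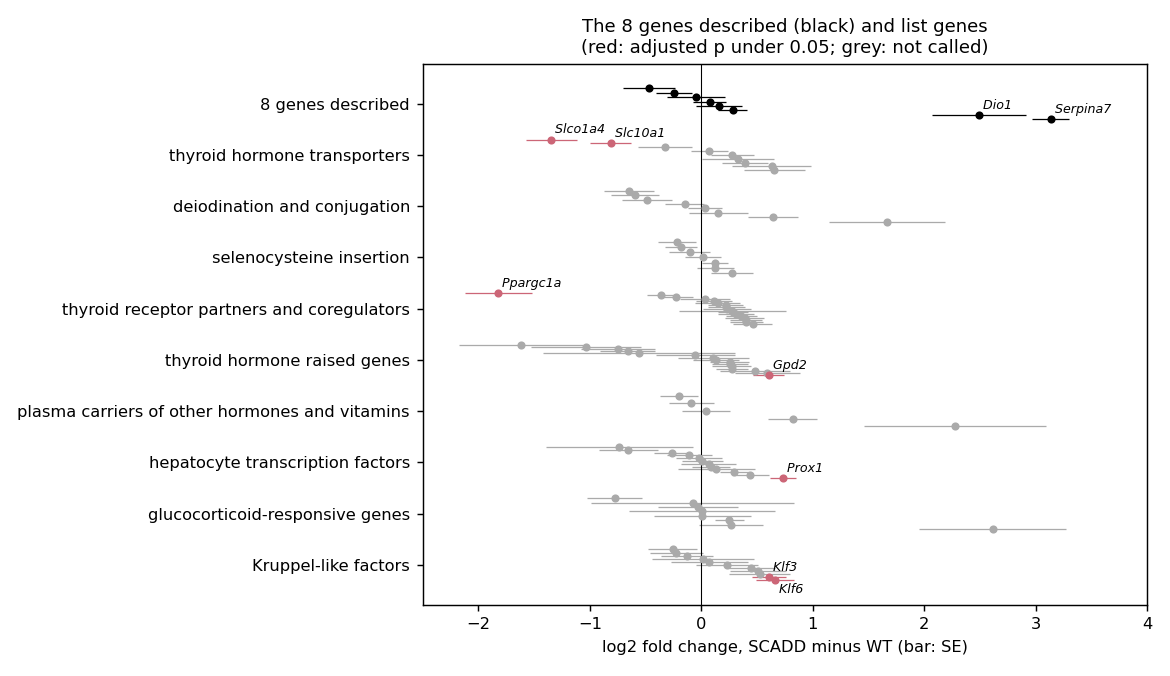
Log2 fold change (SCADD over WT, horizontal axis, bars for SE) of the 8 genes (black) and of the tested genes of each of the 9 lists (grey, or red for an edgeR adjusted p under 0.05). Serpina7 at 3.13 and Dio1 at 2.49 lie apart from most list genes, and the called list genes run from -1.82 for Ppargc1a to 0.73 for Prox1.

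The RNA held few or no reads of thyroid tissue, the source of the hormone. Of 6 thyroid markers 0 passed the filter, Tshr and Pax8 were at 0 reads, and Tg, the precursor of the hormone, had 16 reads in WT and 0 in SCADD. Hormone levels were not measured in these files, and neither were the proteins of the 8 genes.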

How the data were processed

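RNA of 6 livers, 3 per group, was sequenced, and the series describes the animals as biological replicates. The p-values thus set the difference between the groups against the variation between animals, which was estimated with information shared across genes. The tools were STAR 2.7.6a and RSEM 1.3.3, with the GRCm38 build, per the submitters' processing notes. Which annotation they used is not given in the sources used here. The authors deposited unnormalised STAR read counts per gene, and RSEM expected counts, TPM and FPKM. The deposited FPKM values were not used. Column 4 of the STAR tables, which held 96.8% to 97.3% of stranded reads, supplied the counts. Its 4 summary rows (unmapped, multi-mapped at 10.1% to 13.1%, no gene at 1.47% to 2.17%, ambiguous at 1.09% to 1.53%) stayed out of library sizes and tests. Symbols and coordinates came from GENCODE M21, which matched 55141 of 55487 IDs.

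Genes kept by filterByExpr (minimum count 10) were tested after TMM scaling with edgeR 4.0.16 (glmQLFit with robust estimation, glmQLFTest; R 4.3.3) in 1 fit of all 6 libraries, without terms beside the group. Benjamini-Hochberg adjustment covered all 13498 genes tested, and the threshold was 0.05. Log2 fold changes use a prior count of 0.125. SE was approximated from the log2 fold change and the quasi-likelihood F statistic (their ratio, after taking the root of F). The test was checked on simulated data, where it recovered nearly all large changes and few small ones, and where the share of false calls was above the nominal threshold, so calls near the threshold are uncertain. Replicates differed by far more than sampling noise (chi-square per degree of freedom 36.8 to 136).

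The 8 genes and all lists were chosen with earlier results of these data known. The genes named are the 8, the called genes of each list (at most 6, or the 2 with the smallest p where none was called), the 5 genes most like Serpina7 with a mean of at least 1 CPM and no predicted, clone or pseudogene name, called genes within 500 kb of the 8, and Acads. Rnf125, Rnf128, Slco1b2, Hr, Cyp7a1, Thrsp, Nr1d1, Gm43449 and the genes named for having few or no reads fall outside that rule and were chosen after their values were seen. As alternatives, the scaling (RLE, upper quartile) and the filter (none, or 1 CPM in 3 libraries) were changed, and the others were DESeq2 1.42.0, limma-voom (limma 3.58.1), edgeR without robust estimation, RSEM expected counts rounded to whole numbers, unstranded counts, the replicate number as a block, leaving out the Mup genes, and leaving out each library in turn.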

Additional observations from a re-analysis of the deposited data

How the results depend on the processing

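The log2 fold changes of all 8 genes moved by less than the spread between replicates under each of the 17 alternatives. For the 6 that left out a library this was close to fixed beforehand. Leaving out 1 of 3 replicates can hardly move a group mean by more than that spread. Under the other 11, Serpina7 ran from 3.08 to 3.15, Dio1 from 2.44 to 2.54 and Klf9 from 0.23 to 0.28. Under all 17, Serpina7 ran from 3.04 to 3.29, Dio1 from 2.15 to 2.97 and Klf9 from 0.23 to 0.34. Alb (-0.18 to 0.19) and Thrb (-0.02 to 0.21) changed sign. The number of called genes was 947 in the reported fit (569 higher, 378 lower), 1702 with no filter, and 395 to 1590 with 1 library left out. Leaving out WT replicate 2 gave 395, WT replicate 3 gave 460, SCADD replicate 1 gave 517 and SCADD replicate 3 gave 1590. Upper-quartile scaling gave 470 higher and 482 lower genes. The 7 calls in the 9 lists became 18 with no filter and 3 to 12 with 1 library left out. The 4 calls within 500 kb became 2 with the filter of 1 CPM, 2 with RSEM counts and 2 to 5 with 1 library left out, with 2 each without WT replicate 1, WT replicate 2 and SCADD replicate 1. Afp turned from -2.39 to 0.77 with unstranded counts. The cause of these changes was not tested.

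The replicate numbers were not treated as pairs, since same-numbered libraries deviated from their group means with correlations of 0.061, 0.037 and 0.107, not all above 0.1. SCADD replicates 2 and 3 correlated best with their own number, and SCADD replicate 1 about equally with WT replicates 1 (0.0606) and 2 (0.0612). With the replicate block 1148 genes were called in place of 947, and Serpina7 had a log2 fold change of 3.15. Low counts limit Thra (63 reads in its lowest library), 4930513O06Rik and Afp.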
